A study of Canis lupus familiaris with 18 samples.

Results

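Regions of the dog genome that carried an E2F1 peak in exactly 1 of 6 dogs, and in that dog lay on a peak of the histone mark H3K27ac, are described here. The narrow E2F1 peaks of all 6 dogs on the 38 autosomes were merged wherever they overlapped or touched, which gave 512222 regions. Of these, 410138 regions (80.1%) held a peak of a single dog. Of the single-dog regions, 112857 had at least 1 bp in common with H3K27ac of the dog in question, which is 22.0% of all merged regions and 27.5% of the single-dog regions. They are called single-dog regions inside H3K27ac below. The regions were chosen by measured values, the called E2F1 and H3K27ac peaks themselves, so their presence in 1 dog, their overlap with the dog's own H3K27ac, and the strength and width of their peaks against other regions are given as description and without a test. Tests were kept to genotype, to H3K27ac of other dogs, to nearby E2F1 peaks of other dogs, and to the position within the H3K27ac peak. The choice used neither genotype, nor H3K27ac of other dogs, nor position beyond the overlap itself. It did use E2F1 peaks of other dogs, since none of them may overlap or touch a single-dog region. Regions found in several dogs were set apart by the same E2F1 lists, and regions inside and outside H3K27ac by the rule itself. Tests against these groups are therefore not independent of the choice.

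E2F1 is a transcription factor that binds DNA as a dimer with a DP protein and is best known for switching on genes for DNA replication and the cell cycle, and it is held in check by the retinoblastoma protein. H3K27ac is the acetylation of lysine 27 on histone H3, a mark found at active promoters and enhancers, the stretches of chromatin where transcription factors usually bind. A broad H3K27ac peak can therefore cover several places at which factor binding is measured, and peaks of a factor are commonly more numerous within acetylated chromatin than outside it.

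The tissue was flash-frozen brainstem (pons) of 6 male dogs between 12 and 16 years old, with 1 E2F1 and 1 H3K27ac ChIP-seq library per dog. The libraries labelled ins came from 3 dogs heterozygous for the ancestral allele of GTF2I, which contains a transposable element insertion. The libraries labelled noins came from 3 dogs homozygous for the derived allele, which lacks it. They are called ancestral dogs 1 to 3 and derived dogs 1 to 3. Values for single dogs are given in this order, ancestral group first. The input libraries were not analysed here. Brainstem is a mixture of neurons, glia and other cells, so that fewer cells carrying a mark and less of the mark per cell cannot be told apart. The lists hold positions, enrichments and q values of called peaks and no reads, so the depth behind each peak is unknown. A dog without a peak at a position has no value there, which is not evidence of no binding, and a region is single-dog only in the sense that 1 list holds a peak. A peak in 1 list can also be a false call. The study reports low cross-correlation scores and unusual noise for its E2F1 data, and called peaks stringently to compensate for the noise. How many single-dog regions are false calls was not tested.

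The E2F1 lists differed in length. They held 84014 to 160157 peaks on the autosomes, with a median of 111633, and derived dog 2 had the longest list. The H3K27ac lists held 96561 to 138141 peaks that covered 9.81 to 13.5% of the autosomes. No 2 lists of the same antibody shared more than 0.00299% of their peaks with identical coordinates.

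Single-dog regions inside H3K27ac were found in every dog, but 1 dog held more of them than any other. They numbered 15530, 12274 and 19515 in the ancestral group, and 15629, 32504 and 17405 in the derived group. Derived dog 2 alone held 28.8% of all 112857, and ancestral dog 2 held the fewest with 10.9%. As a share of the single-dog regions of each dog they made up 30.3, 28.1 and 25.9% in the ancestral group, and 22.1, 34.1 and 23.6% in the derived group. The derived dogs thus held both the lowest and the highest share, with the ancestral dogs between them.

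**Figure D1:**
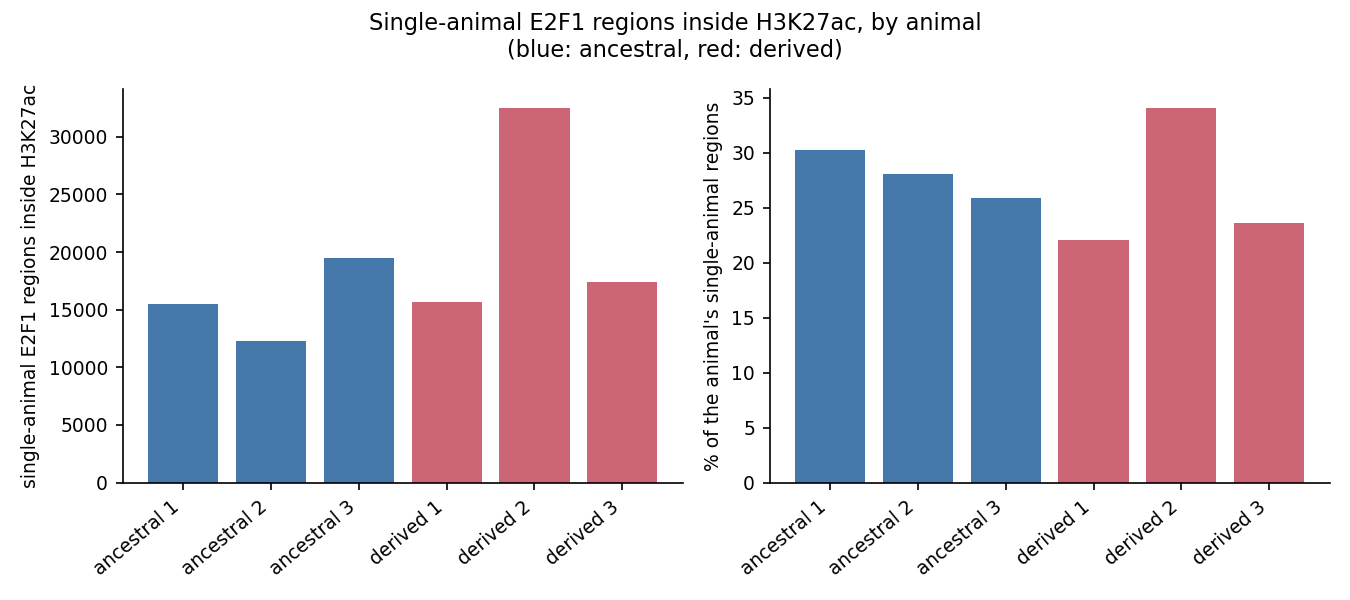
The number of single-dog E2F1 regions inside H3K27ac peaks (left) and their percentage among all single-dog E2F1 regions of the dog (right), with 1 bar per dog, ancestral dogs in blue and derived dogs in red. Derived dog 2 stands highest in both panels, with 32504 regions and 34.1%.

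The share was 28.1% ± 2.19 (SD, n = 3) in the ancestral and 26.6% ± 6.53 (SD, n = 3) in the derived dogs (exact permutation test, two-sided, p = 0.7, derived minus ancestral −1.50 percentage points). The numbers were 15773 ± 3627 (SD, n = 3) and 21846 ± 9273 (SD, n = 3) (exact permutation test, p = 0.4). With 3 dogs against 3, the smallest p that can be reached is 0.1. With the list of each dog cut to its 84014 strongest E2F1 peaks by −log10 q, the regions numbered 17400, 14603 and 13752 in the ancestral group and 13939, 18572 and 13900 in the derived group. Derived dog 2 then stood close to ancestral dog 1 in number, while its share, at 41.0%, stayed above the 23.6 to 31.6% of the other dogs. Without derived dog 2, and with the regions merged again, the number in the derived dogs was 19630.5 and in the ancestral dogs 19995. The share was then 24.5% and 30.9%, a difference of −6.43 percentage points (exact permutation test, p = 0.1, the smallest that 3 dogs against 2 allow).

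Fewer dogs sharing a region went with a lower frequency of H3K27ac. Of the regions with a peak in 2 dogs, 49.6% overlapped H3K27ac of a dog that held the peak, against 67.1% for 3 dogs, 78.9% for 4, 85.3% for 5 and 86.3% of the 2771 regions found in all 6. A region with more dogs had more chances to meet such a peak, since any of its dogs counted. The 15074 regions with a peak in at least 4 dogs are called recurrent below.

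Even at 27.5%, single-dog regions were denser inside H3K27ac than outside in each of the 6 dogs. Their midpoints numbered 47.0, 52.1 and 78.0 per Mb of H3K27ac in the ancestral group and 55.2, 119.6 and 60.4 per Mb in the derived group. Outside H3K27ac they numbered 16.3 to 33.4 per Mb. The ratio of inside to outside ran from 1.90 in derived dog 1 to 3.58 in derived dog 2.

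Each single-dog region inside H3K27ac consisted of 1 peak. The median width was 279, 272 and 230 bp in the ancestral group and 227, 251 and 229 bp in the derived group, so that the genotypes overlapped. The means of these medians were 260.3 ± 26.5 bp (SD, n = 3) and 235.7 ± 13.3 bp (SD, n = 3) (exact permutation test, two-sided, p = 0.2). By median over all dogs, the regions were 249 bp wide inside H3K27ac and 235 bp wide outside it, while recurrent regions, which join peaks of several dogs, reached 950 bp. The widest region was 1891 bp.

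By q value the regions lay somewhat below the middle of each list. The median fold enrichment over the local background was between 3.88 and 4.14, and the median −log10 q between 2.40 and 2.90, across the dogs. Ranked by −log10 q within the E2F1 list of the dog, the median region stood above 42.0 to 48.6% of the peaks. A q value below 0.0005, which the methods of the study set for E2F1, was reached by 34832 of the 112857 regions (30.9%), compared with 25.5% of the single-dog regions outside and 35.3% of all merged regions. Per dog this share ran from 16.0% in derived dog 1 to 41.0% in ancestral dog 2. The remaining regions are present because the lists begin at a −log10 q of 1.30.

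The border of the rule did not coincide with a step in peak strength. The 2938 regions that overlapped H3K27ac by only 1 to 50 bp had a median fold of 3.94 and a median −log10 q of 2.54. The 2755 single-dog regions that ended within 50 bp outside H3K27ac had 3.95 and 2.55, and the median width was 244 bp in both sets. On the other side of the rule, the 33966 regions of 2 dogs inside H3K27ac had a median width of 426 bp, a fold of 4.68 and a −log10 q of 3.75. Most regions were not at the border, since 76.0 to 82.9% per dog lay wholly inside the H3K27ac peak.

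H3K27ac of the same dog was then compared with H3K27ac of the other dogs, to ask whether single-dog E2F1 regions follow the acetylation of the dog in which they were called. Ancestral dog 1 had 30.3% of its single-dog regions on its own H3K27ac and on average 23.7% on the lists of the 5 others. The values were 28.1 and 32.0% in ancestral dog 2, 22.1 and 20.5% in derived dog 1, 34.1 and 29.7% in derived dog 2, and 23.6 and 22.8% in derived dog 3. In ancestral dog 3, with 25.9% on its own H3K27ac, the difference was −1.12 percentage points. The dog's own list was ahead in 4 of 6 dogs, and the mean difference, 1.38 ± 3.75 percentage points (SD, n = 6), was smaller than its spread. It is given without a test, because the overlap with the dog's own H3K27ac is what the regions were chosen by. The 2 dogs in which it was not ahead, ancestral dogs 2 and 3, had the 2 smallest H3K27ac lengths. A list that covers more of the genome overlaps more regions, and the comparison does not remove this.

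Stretches of H3K27ac that set 1 dog apart remove this effect of length, because each list of E2F1 regions is then laid over the same sequence. They are still defined by the dog's own H3K27ac, the overlap with which the regions were chosen by. The comparison therefore cannot settle whether the regions follow the dog's own acetylation. This comparison was chosen after the data were seen, and it is a description without a test for the same reason. Stretches acetylated in 1 dog only held 1.89% of that dog's own single-dog E2F1 regions and 1.51% of those of the other dogs, as means over 6 dogs. The dog's own list held the larger share in 6 of 6 dogs, 1.11 to 1.60 times as much, and ranked highest of the 6 lists in each (difference 0.380 ± 0.287 percentage points, SD). In stretches acetylated in all dogs but 1, the share was 0.526% for the dog without the mark and 0.701% for the mean of the others, below that mean in 6 of 6 dogs and 0.504 to 0.911 times as large. The dog without the mark had the lowest of the 6 lists in 4 dogs, and not in ancestral dogs 2 and 3. These stretches hold few of the regions. The number on H3K27ac of their own dog alone was 1900, 473 and 568 in the ancestral group and 1228, 2362 and 1177 in the derived group, counted by midpoint.

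Over all classes of sharing, the mean shares of the regions lay close to those of the H3K27ac length. The midpoint of 103980 regions (92.1%) lay inside the H3K27ac peak of the dog. At these midpoints the number of other dogs with H3K27ac was counted. As the mean over 6 dogs, 7.44% had H3K27ac in no other dog, 7.98% in 1, 8.74% in 2, 10.0% in 3, 14.0% in 4 and 51.8% in all 5. The length of the H3K27ac of a dog fell into the same classes as 8.07, 8.17, 8.80, 10.2, 14.1 and 50.6%. The last class held 53168 regions on the 127.3 Mb that all 6 dogs had in common. The mean number of regions per Mb of H3K27ac was 64.3 in stretches of 1 dog and 69.6 in stretches of all 6 (SD 33.7 and 25.5, n = 6). Single dogs went in both directions. In the order of the dogs, the number per Mb was 45.2, 33.5, 70.0, 60.4, 128.1 and 48.4 in stretches of 1 dog and 47.7, 57.6, 82.4, 51.1, 115.2 and 63.8 in stretches of all 6. It was higher in the stretches of all 6 in 4 dogs and lower in derived dogs 1 and 2, with ratios from 0.846 to 1.72.

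**Figure D2:**
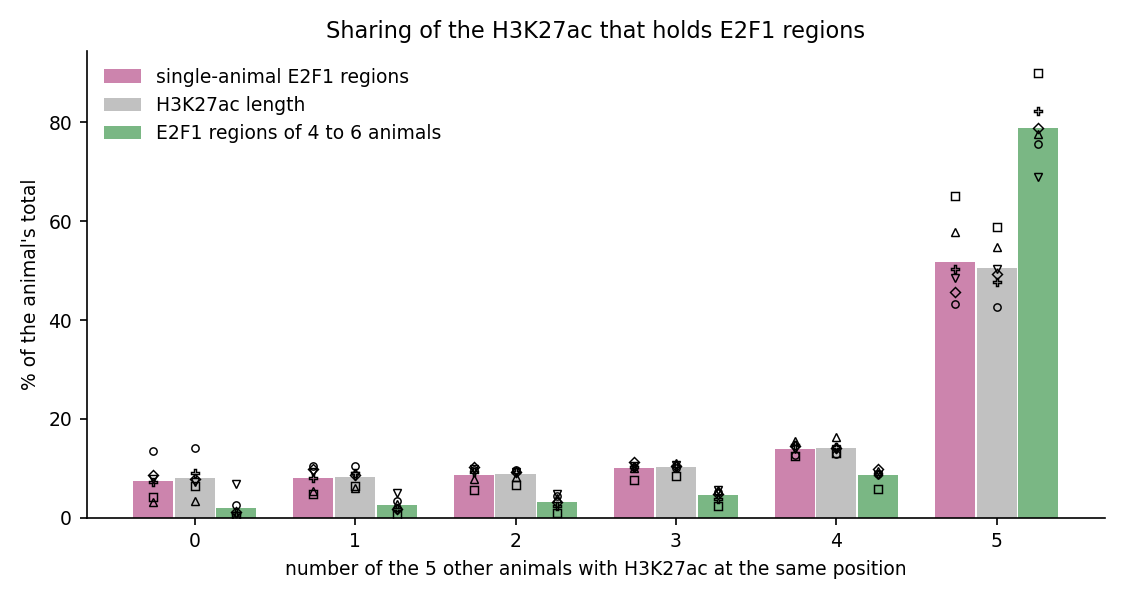
Percentage of single-dog E2F1 regions, of H3K27ac length and of recurrent E2F1 regions (4 to 6 dogs) by the number of the 5 other dogs with H3K27ac at the same position, with bars as means over 6 dogs and 1 open symbol per dog. The bars of single-dog regions follow those of the H3K27ac length, at 51.8 and 50.6% in the last class, where recurrent regions reach 78.9%.

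In H3K27ac common to all 6 dogs, the regions and the length did not separate beyond the spread between dogs. The regions reached 43.3, 65.0 and 57.9% in the ancestral group and 45.7, 48.5 and 50.4% in the derived group. The length reached 42.6, 58.9 and 54.8% and 49.4, 50.3 and 47.7% in the same dogs. The difference was 1.19 ± 3.57 percentage points (SD, n = 6), positive in 4 of 6 dogs (exact sign-flip test, two-sided, p = 0.4375). With the thresholds of the study's methods (q below 0.0005 for E2F1 and below 0.05 for H3K27ac), the regions were ahead of the length by 5.97 points (exact sign-flip test, p = 0.03125). When peaks within 500 bp of each other were merged, the difference was −4.47 points (exact sign-flip test, p = 0.03125), so the direction of this comparison rests on the processing.

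Recurrent regions lay on shared H3K27ac more often. Of the recurrent regions called in a dog, with midpoints on its H3K27ac, 75.6, 90.0 and 77.8% in the ancestral group and 79.0, 69.0 and 82.3% in the derived group lay on H3K27ac of all 5 other dogs. Single-dog regions were lower in 6 of 6 dogs, by 27.1 ± 6.14 percentage points (SD, n = 6; exact sign-flip test, two-sided, p = 0.03125, the smallest that 6 dogs allow). With stricter thresholds (q below 1e-10 for E2F1 and below 1e-05 for H3K27ac) the difference was −3.77 points (exact sign-flip test, p = 0.375). Only 2.08% of recurrent regions lay on H3K27ac of no other dog.

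The H3K27ac signal at which the regions sat showed the same contrast. The H3K27ac peaks of each dog were put into 4 classes of equal number by fold enrichment, with median folds from 2.38 in the lowest to 5.54 in the highest class (means over 6 dogs). Single-dog regions numbered 65.1, 69.5, 70.0 and 68.6 per Mb of H3K27ac from the lowest to the highest class. Recurrent regions numbered 5.26, 7.02, 15.4 and 43.8 per Mb. Within a dog, the highest class held 0.882 to 1.25 times the density of single-dog regions of the lowest, and 6.52 to 11.0 times the density of recurrent ones. No test was made of these densities.

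The width of the H3K27ac peak gave a similar picture. Peaks under 1 kb held 76.6 single-dog regions per Mb, those of 1 to 2 kb held 65.4, those of 2 to 5 kb held 65.6, those of 5 to 10 kb held 67.8 and wider ones held 72.2. Recurrent regions rose along these classes from 14.3 to 33.4 per Mb. Since a wide peak offers more sequence, 63.6% of the H3K27ac peaks of 10 kb or more held a single-dog region, against 5.50% of those under 1 kb. By the rule, a peak that merged with a peak of another dog could not be counted as a single-dog region in any class.

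**Figure D3:**
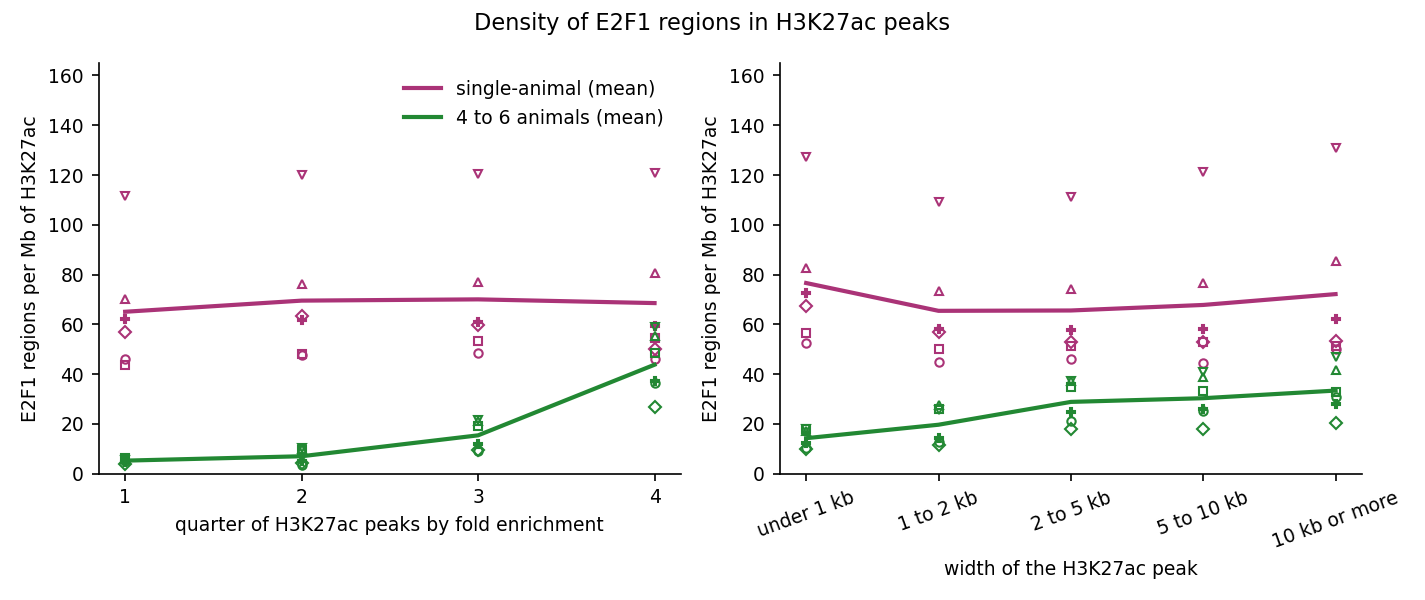
E2F1 regions per Mb of H3K27ac by class of fold enrichment (left, 1 lowest and 4 highest) and by width (right) of the H3K27ac peak, for single-dog regions in purple and recurrent regions (4 to 6 dogs) in green, with lines as means over 6 dogs and 1 open symbol per dog. The purple lines stay between 65.1 and 76.6 per Mb while the green line in the left panel climbs from 5.26 to 43.8 per Mb, and the highest purple symbols are those of derived dog 2.

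Seen from the H3K27ac peaks, most held none of these regions and few held several. A single-dog region lay on 9.89% of the H3K27ac peaks of ancestral dog 1, 10.8% of ancestral dog 2 and 15.5% of ancestral dog 3, and on 11.5, 23.4 and 13.0% of those of derived dogs 1 to 3. Peaks with a region had a median width of 2838 to 3251 bp and peaks without one of 1093 to 1174 bp. Of the peaks with a region, 74.9 to 89.7% held 1, and the most in a single peak was 9 to 18.

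The H3K27ac peaks of the 6 dogs were also merged into 175766 domains, of which 51103 (29.1%) held a single-dog region of any dog. In 32329 domains all such regions came from 1 dog, in 10470 from 2 dogs, in 4340 from 3, in 2189 from 4 and in 1179 from 5. In 596 domains each of the 6 dogs had at least 1 region of its own, at different positions. These domains had a median width of 34598.5 bp, against 2387 bp where 1 dog contributed. By the rule each of them held H3K27ac of all 6 dogs, since every region overlaps H3K27ac of its own dog. The domain with the most regions held 80 and spanned chr9:32140408-32327827 (CanFam3.1), a length of 187420 bp. It held 11, 5 and 15 regions of ancestral dogs 1 to 3 and 14, 28 and 7 of derived dogs 1 to 3, so that derived dog 2 led there as well.

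Within the H3K27ac peak, the regions were spread almost evenly from the edge to the centre. The distance from the nearest edge to the centre was cut into 5 equal bands, each of which would hold 20% of evenly placed midpoints. Single-dog regions filled them with 21.2, 20.2, 19.5, 19.4 and 19.6% from the outermost to the innermost band (means over 6 dogs). Recurrent regions filled them with 16.9, 17.3, 20.1, 21.9 and 23.8%. Per dog, the outermost band held 19.6 to 22.5% of single-dog and 16.0 to 18.0% of recurrent midpoints, so that the 2 kinds did not overlap.

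**Figure D4:**
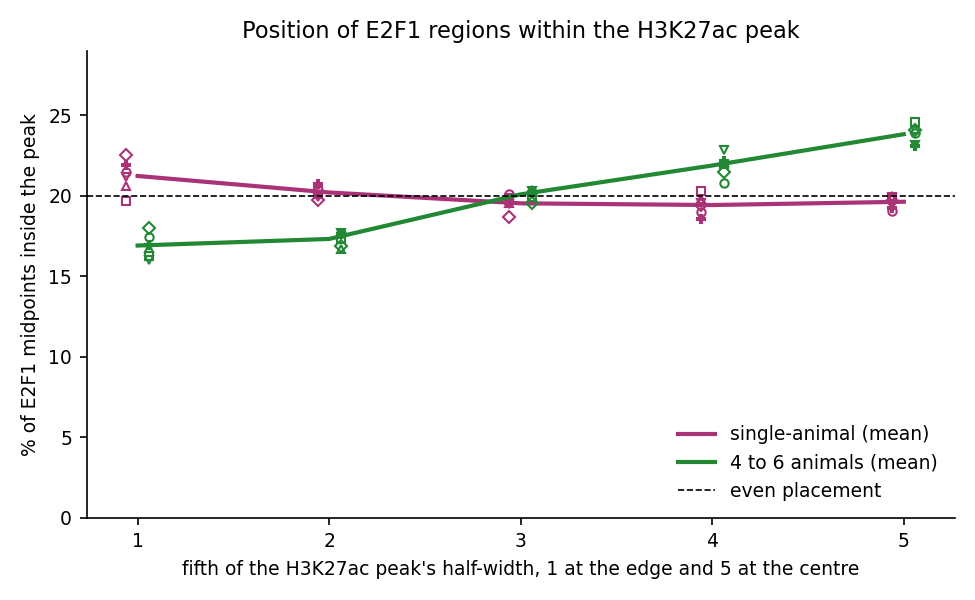
Percentage of E2F1 midpoints in 5 equal bands between the edge (1) and the centre (5) of the H3K27ac peak, for midpoints inside the peak, with single-dog regions in purple, recurrent regions (4 to 6 dogs) in green, lines as means over 6 dogs and 1 open symbol per dog. Single-dog regions stay near the dashed line at 20%, and recurrent regions rise from 16.9 to 23.8%.

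The comparison of the median position depended on which midpoints were counted. With midpoints outside the H3K27ac peak set to the edge, the median was at 44.2% of the way from edge to centre for single-dog and at 41.6% for recurrent regions, higher for single-dog regions in 5 of 6 dogs (exact sign-flip test, two-sided, p = 0.125). Recurrent regions are wider, and their midpoints lay inside the peak less often, in 74.1 to 84.0% per dog against 90.4 to 93.0%. With midpoints inside the peak alone, a choice made after the data were seen, the medians were 48.7 and 56.1% and the order turned, with a difference of −7.35 points, single-dog regions being nearer to the edge (exact sign-flip test, p = 0.03125). With the midpoint of the dog's own strongest peak in each region, also chosen after the data were seen, the medians per dog ran from 47.4 to 49.8% for single-dog and from 54.3 to 57.6% for recurrent regions, without overlap (exact sign-flip test, p = 0.03125). In bases, and again over midpoints inside the peak alone, the median single-dog midpoint lay 723 to 1065 bp from the edge, depending on the dog. The median recurrent one lay 1035 to 1465 bp from it.

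Although called in 1 dog, the regions often had an E2F1 peak of another dog close by in the lists as deposited. The median distance to the nearest E2F1 peak of another dog was 560 to 658 bp per dog, and 1114 to 1428 bp for single-dog regions outside H3K27ac. A peak of another dog lay within 1 kb of 73172 of the 112857 regions (64.8%), against 49.4% of all single-dog regions and 43.5% of those outside H3K27ac. Per dog, the share inside H3K27ac was 63.1, 63.7 and 67.1% in the ancestral group and 63.8, 66.6 and 62.3% in the derived group. Outside it was 40.9, 45.1 and 45.0% and 41.6, 46.8 and 41.0%. The difference was 21.0 ± 1.50 percentage points (SD, n = 6), positive in 6 of 6 dogs (exact sign-flip test, two-sided, p = 0.03125). The rule set these groups apart and used E2F1 peaks of other dogs, so the test is not independent of the choice. At the stricter thresholds it was 3.80 points (exact sign-flip test, p = 0.09375). The mean share inside H3K27ac was then 10.14%, and with the thresholds of the study's methods it was 39.99%. How often the density of the peaks alone would give such a neighbour was not tested. Single-dog midpoints were 1.90 to 3.58 times denser inside H3K27ac than outside, and the part of this in the difference was not tested.

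Such neighbours usually came from few dogs. Within 1 kb, 35.6% of the regions had no peak of another dog, 31.2% had peaks of 1, 19.0% of 2, 9.32% of 3, 3.68% of 4 and 1.14% of all 5 (means over 6 dogs). Taken dog by dog, a peak of derived dog 2, which had the longest list, lay within 1 kb of 34.2% of the regions of the other dogs, and a peak of ancestral dog 1 of 18.0%. The mean over pairs of dogs was 23.5% within a genotype (12 ordered pairs) and 23.6% between genotypes (18 ordered pairs), and this was not tested because pairs share dogs. With the sharing of H3K27ac the neighbours became more frequent, from 48.6% ± 9.66 (SD, n = 6) where no other dog had H3K27ac to 70.8% ± 0.957 (SD, n = 6) where all 5 others had it.

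Recurrent E2F1 regions were also nearer. A recurrent region lay within 10 kb of 36572 of the regions (32.4%), against 18.0% of all single-dog regions. Per dog the share was 29.8, 29.4 and 32.7% in the ancestral and 27.9, 38.3 and 29.6% in the derived group, and outside H3K27ac it was 9.93, 13.5 and 13.6% and 10.1, 15.7 and 11.3%. The difference was 18.9 ± 2.24 percentage points (SD, n = 6), positive in 6 of 6 dogs (exact sign-flip test, two-sided, p = 0.03125). Here too the groups were set apart by the rule, and the test is not independent of the choice. It was −0.853 points at the stricter thresholds (exact sign-flip test, p = 0.78125). With regions merged again and recurrent meaning 4 of 5 dogs, it was 11.6 points without derived dog 2 and 12.4 points without ancestral dog 3. The median distance to a recurrent region was 17886.5 to 30723 bp inside H3K27ac and 61708 to 101871 bp outside, so most single-dog regions had no recurrent region in their immediate surroundings, and within 1 kb there was one for only 6.68% ± 1.21 (SD, n = 6). Recurrent regions themselves lie mostly on H3K27ac, and the part of this in the difference was not tested.

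**Figure D5:**
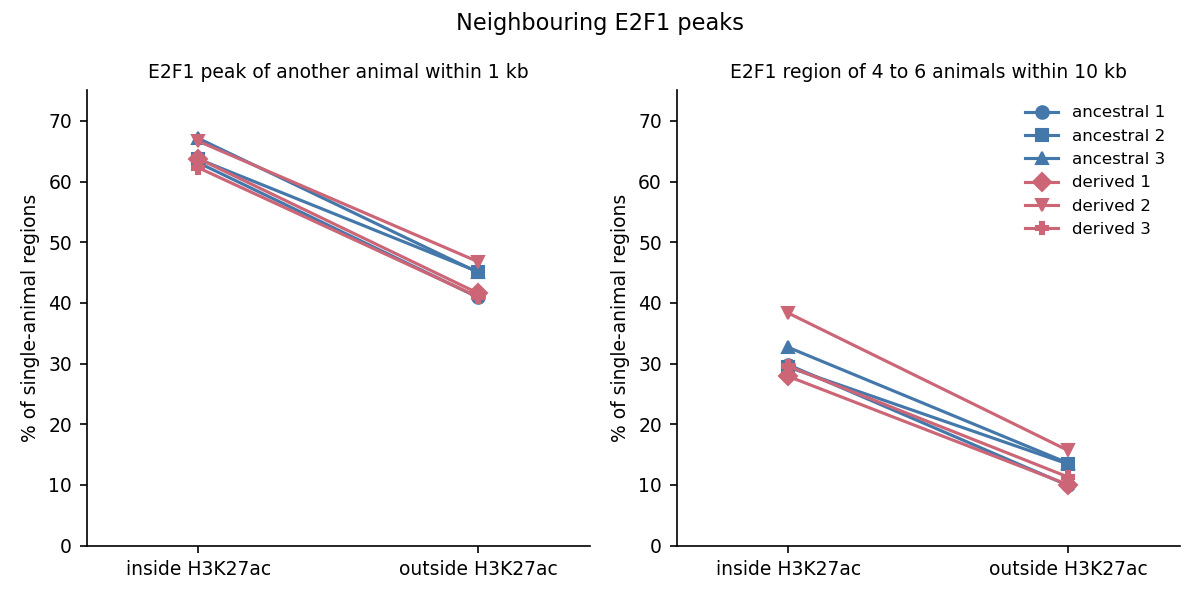
Percentage of single-dog E2F1 regions inside and outside H3K27ac with an E2F1 peak of another dog within 1 kb (left) and with a recurrent region (4 to 6 dogs) within 10 kb (right), with 1 line per dog, ancestral dogs in blue and derived dogs in red. Each of the 6 lines falls from inside to outside in both panels, by 21.0 and 18.9 percentage points on average.

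Of the 8 planned tests given here, the 3 at p = 0.03125 have a Benjamini-Hochberg adjusted p of 0.0833 (exact tests). Over 10 tests, with the 2 on position that were chosen after the data were seen, the 5 at p = 0.03125 have an adjusted p of 0.0625 (exact tests). With the planned test that is not given counted as well, 9 in all, the adjusted p of the 3 is 0.09375 (exact tests). No test passed 0.05 after adjustment. A sign-flip test over 6 dogs cannot give a p below 0.03125, and a genotype test cannot give one below 0.1.

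Chromosomes differed in the share of single-dog regions that fell inside H3K27ac, and much less in the density within it. The share was highest on chromosome 9, at 37.0% as the mean over 6 dogs (32.5 to 43.6%), followed by chromosome 20 at 34.9% (29.7 to 41.3%). It was lowest on chromosome 29, at 16.3% (12.7 to 20.3%), and on chromosome 36, at 20.3%. Chromosomes 5, 9, 20 and 26 were among the 10 highest in all 6 dogs, and chromosomes 14, 16, 19, 22, 29, 31 and 36 among the 10 lowest in all 6. Per Mb of H3K27ac the regions numbered from 57.5 on chromosome 32 to 83.9 on chromosome 26, a ratio of 1.46, compared with 2.27 for the share. On 34 of the 38 chromosomes derived dog 2 had the highest share of the 6 dogs.

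Around GTF2I, the gene with the transposable element insertion that separates the genotypes, chr6 from 5.7 to 5.9 Mb held 60 single-dog E2F1 regions, of which 35 (58.3%) lay inside H3K27ac, against 27.5% over all autosomes. GTF2I encodes TFII-I, a transcription factor with several functions in the nucleus. The regions inside H3K27ac numbered 3, 4 and 5 in the ancestral group and 1, 16 and 6 in the derived group, so that derived dog 2 held more than any other dog. Their median width was 247 bp and their median fold 4.01 (2.63 to 8.46), and 12 of the 35 (34.3%) had a q value below 0.0005, against 30.9% of the whole set. H3K27ac of all 5 other dogs overlapped 21 of the 35 (60.0%), against 52.6% of the whole set, and that of at least 1 other dog overlapped each of them. An E2F1 peak of another dog lay within 1 kb of 22 (62.9%), against 64.8% of the whole set. The region with the highest fold was chr6:5746331-5746608 in ancestral dog 2, at a fold of 8.46 and a −log10 q of 11.8. It lay inside an H3K27ac peak of 8394 bp, and all 5 other dogs had H3K27ac at the region.

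Single regions show the range within the set. By a fixed rule, 4 regions were named in each dog, which gave 22 different regions. The region with the largest −log10 q in each dog stood far above the median and overlapped an H3K27ac peak of 369 to 2262 bp. In derived dog 1 it was chr4:11480436-11480641, 206 bp wide, with a fold of 582 and a −log10 q of 3089. It lay inside an H3K27ac peak of only 369 bp, and no other dog had H3K27ac at the region. In derived dog 2 it was chr31:12413769-12414271, 503 bp wide with a fold of 211, inside an H3K27ac peak of 1632 bp. All 5 other dogs had H3K27ac at this region.

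The corresponding folds were much lower in the other 4 dogs. They were 31.4 in ancestral dog 1 at chr19:4976843-4977119, 13.7 in ancestral dog 2 at chr9:27548520-27548780, 18.5 in ancestral dog 3 at chr25:1022171-1022389 and 38.5 in derived dog 3 at chr7:23370882-23371234. Multi-mapped reads were kept in the alignment, and whether these positions are repeats could not be read from the lists. The overlap with H3K27ac was only 75 bp in ancestral dog 1 and 63 bp in derived dog 3, with both midpoints outside the peak.

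The widest regions were not the strongest ones. The widest were 1058 to 1891 bp wide with folds of 3.66 to 7.91. Each had an E2F1 peak of another dog within 332 bp, and in the whole set 64.8% had one within 1 kb. H3K27ac of all 5 other dogs overlapped 5 of the 6, against 52.6% of the whole set. The widest was chr30:37271172-37273062 in derived dog 2, with a fold of 5.30 and 332 bp to the nearest peak of another dog. Of the strongest regions, 2 of 6 had such a neighbour within 1 kb. A difference between the widest and the strongest, with 6 regions each, was not tested.

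Regions at the middle rank of −log10 q are closest to the typical one. They were 176 to 314 bp wide, with folds of 3.91 to 4.19 and H3K27ac peaks of 516 to 21443 bp around them. In ancestral dog 2 this was chr15:51368062-51368329, 268 bp wide with a fold of 4.19. It lay 66.0% of the way from the edge to the centre of an H3K27ac peak of 3548 bp, and all 6 dogs had H3K27ac at the region. The nearest E2F1 peak of another dog lay 685 bp away, and the nearest recurrent region 40190 bp away.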

How the data were processed

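ChIP-seq peak lists of 6 dog pons samples were analysed. Per the methods of the study, unique molecular identifiers were extracted with umi_tools, reads were trimmed with Trim Galore 0.0.6 and aligned with bowtie to CanFam3.1, multi-mapped reads being kept, duplicates were removed, and macs2 2.2.0 called peaks in each dog separately. The submitters' processing notes name Bowtie 1.1.2, which differs from the methods, and whether the input entered the calls is not given in the sources used here. The deposited lists give a score by macs2, the fold enrichment of a peak as a ratio to its local background, −log10 p and −log10 q values computed by the authors, and the summit position. The score was not used. The fold and q were used only within a list, and no values were normalized between dogs. In the deposited E2F1 lists the lowest −log10 q is 1.30, although the methods state a q value of 0.0005. Main results used the lists as deposited, with each list of 1 dog as 1 sample, 0 columns left unmapped and coordinates given 1-based on CanFam3.1.

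Regions were merged where they overlapped or touched. Genotypes were compared with exact permutation tests of means over 20 assignments, and measures within dogs with exact sign-flip tests over 64 sign assignments, all two-sided. The sign-flip test planned for H3K27ac of the same against other dogs is not given, since it uses the overlap by which regions were chosen. The rule for named regions took, in each dog, the largest −log10 q, the largest with H3K27ac in no other dog, the widest and the middle rank, and those on chr6 from 5.7 to 5.9 Mb. The members and lists were chosen with earlier results of these data known. Alternatives were the study's and stricter thresholds (1e-10 and 1e-05), 50% overlap, merging within 500 bp, chrX, equal peak numbers, other windows and definitions of recurrent, each dog left out, and pairs by replicate number. Same-numbered dogs of the 2 genotypes had correlations of −0.00420, −0.583 and −0.523 over 38 chromosomes, and differently numbered ones of −0.496 to 0.733. These values cannot settle whether the replicate numbers pair the dogs. Counts of single-dog regions inside and outside H3K27ac, of recurrent regions, of neighbours within 1 kb and of H3K27ac in all other dogs were checked on simulated data. Positions in the peak, lengths, densities and domains were not. Depth is unknown from the lists, so no counting error is given. A CanFam3.1 sequence or annotation was not used here, and promoters and genes were not analysed here. Python 3.11.15, numpy 2.4.6, pandas 2.3.3, scipy 1.17.1 and matplotlib 3.10.9 were used.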

Additional observations from a re-analysis of the deposited data

Results flagged for a closer look

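The number of single-dog E2F1 regions inside H3K27ac in derived dog 2, 32504, stood apart from the other 5 dogs by its gap to the nearest of them. Derived dog 2 also stood apart in H3K27ac of 1 dog only, where its own list exceeded the other lists by 0.925 percentage points. Over the 11 sets of values checked in this way 2 were flagged, both for derived dog 2. The sets share dogs and lists, so this number cannot be set against chance. The flags only pick values for a closer look and are not used as tests. Derived dog 2 also had the longest E2F1 list. With 84014 E2F1 peaks in each dog its number was 18572, next to 17400 in ancestral dog 1, and its excess in H3K27ac of 1 dog only was 1.19 percentage points, against 0.173 to 0.503 in the other dogs.

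On chrX, which the comparisons left out, 1867 of 9864 single-dog E2F1 regions (18.9%) lay inside H3K27ac of the same dog. They numbered 140, 211 and 412 in the ancestral group and 192, 621 and 291 in the derived group, which is 11.4 to 30.0% of the single-dog regions of each dog.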

How the results depend on the processing

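Across 148 alternative values of 11 results, 118 kept their direction and, where tested, their side of 0.05. Untested values counted among them also differed from the main value by less than 1 SD over dogs. The genotype tests cannot give a p below 0.05, so they kept their side by construction. The same holds for sign-flip tests above 0.05 when 1 dog was left out. Stricter q thresholds (1e-10 for E2F1 and 1e-05 for H3K27ac) turned the genotype difference in number (−120) and the excess of recurrent regions within 10 kb (−0.853 points, p = 0.78125 by the exact sign-flip test), and removed the calls for H3K27ac shared with all 5 others against recurrent regions (−3.77 points) and a peak of another dog within 1 kb (3.80). The untested difference in H3K27ac of 1 dog only moved to 0.685 points. The cause was not tested. The study's thresholds added a call for H3K27ac shared with all 5 others against length (5.97), and merging within 500 bp turned it (−4.47). A 50% overlap added a call for the position in the peak (7.13), and midpoints inside the peak alone (−7.35) or own peak midpoints (−7.50), both chosen after the data were seen, turned it.

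With 1 dog left out, a sign-flip test cannot give a p below 0.0625, so 18 values lost their call by construction and kept their direction. The ranges were −26.3 to −24.6 points for H3K27ac shared with all others against recurrent regions, 19.9 to 21.8 for a peak of another dog within 1 kb, 11.6 to 16.9 for a recurrent region within 10 kb (11.6 without derived dog 2 and 12.4 without ancestral dog 3, with recurrent then meaning at least 4 of 5 dogs), 0.320 to 0.578 for H3K27ac of 1 dog only (0.578 without ancestral dog 1) and −0.259 to −0.164 for H3K27ac missing in 1 dog. The genotype difference ranged from −6.43 to 0.818 points in share, with −6.43 without derived dog 2 and 0.818 without derived dog 1, and from −364.5 to 10012 in number, with −364.5 without derived dog 2.

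Whether replicate numbers pair the dogs is not known. With the replicate block, the exact sign-flip p was 0.75 for the share (−1.50 points) and the number (6073), and 0.25, the smallest possible, for the width (−24.7 bp), and no call changed. The planned comparison of the share of regions near gene starts was not run, since no CanFam3.1 annotation was used. Peak lists without reads set no limit on what was missed, so presence in 1 dog rests on the calls alone.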
